A study of Mus musculus with 6 samples.

Results

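Described here are the cytosolic glutathione transferases and the antioxidant genes linked to the transcription factor NRF2, in sciatic nerves of OGT_SCKO mice and of their Ctrl littermates. Members were the array probes whose gene name in the files is a glutathione transferase of the alpha, mu, theta, omega, pi or zeta class, a numbered glutathione peroxidase or peroxiredoxin, or 1 of 20 further redox genes such as Nqo1, Hmox1, Gclc and Nfe2l2. The rule reads gene names, and it gave 76 of 39429 probes, for 53 of 30325 gene names. A probe entered the tests if every array of 1 group or the other flagged it as well above background; 70 member probes of 49 genes did so. Gpx5, Gpx6, Gsta2 and Gstt4 were not well above background on any array and have no value here. The other 49 were represented by probes well above background on all 6 arrays.

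RNA came from 3 pools of nerves of OGT_SCKO mice and 3 pools of Ctrl nerves, all at 1 month of age and on a background the labels spell C56 BL6, with 1 array per pool. The labels also call the first group OGT-KO, and they name no injury for these nerves. OGT is the enzyme that attaches N-acetylglucosamine to serines and threonines of intracellular proteins. Which cells lose Ogt, what drives the deletion, which part of the gene is removed and how many animals made up a pool are not given in the sources used here. P-values measure the spread between pools. Whole nerve was measured, so fewer cells of a type and less RNA per cell cannot be told apart.

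Glutathione is the most abundant small thiol of the cell, and glutathione transferases join it to reactive electrophiles so that these can be exported. Glutathione peroxidases and peroxiredoxins reduce hydrogen peroxide and lipid peroxides, using glutathione or thioredoxin that is recharged with NADPH. NRF2, encoded by Nfe2l2, is held in the cytoplasm and marked for degradation by KEAP1; electrophiles release it, and with a small MAF protein it binds antioxidant response elements in front of many of these genes.

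The level given for a gene is the log2 of its probe's background-corrected signal minus the 75th percentile of the array, so 0 is the brightness of the probe at that percentile. Levels of different probes are not on a common scale. Ogt stood at -0.89, -1.02 and -1.0 in OGT_SCKO arrays 1 to 3, against 0.46, 0.35 and 0.11 in Ctrl arrays 1 to 3. Its signal in OGT_SCKO was 41.3% of that in Ctrl (limma, adjusted p = 0.00117), and the exact two-sided permutation p was 0.1, the smallest that 3 against 3 arrays allow. Correlations between arrays of a group were 0.979 to 0.995 and between groups 0.949 to 0.976. All OGT_SCKO arrays and Ctrl 2 were on 1 slide, and Ctrl 1 and Ctrl 3 on another, so with slide as a fixed block, or within slide 1, OGT_SCKO is set against Ctrl 2 alone.

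Across the 49 member genes, 3 were higher and 9 lower in OGT_SCKO at an adjusted p under 0.05 (limma, Benjamini-Hochberg over 19058 genes). That is 24.5% of the members, beside 23.2% of all genes tested, so the set as a whole changed about as often as the array did. The median log2 fold change of the members was -0.09, against -0.07 for all genes. By role the calls were uneven. Among the 17 glutathione transferases tested, 8 were lower and 1 was higher (52.9%), with a median of -0.47. Among the 32 other members, 2 were higher and 1 was lower (9.38%), with a median of 0.02. The glutathione transferases were negative in 15 of 17 genes, beside 10806 of all 19058 genes. Several of the 17 are neighbouring gene copies measured in the same pools, so they are not separate observations. OGT_SCKO and Ctrl arrays did not overlap in 13 of the 17, beside 45.8% of all genes. Of those 13, 12 were lower in OGT_SCKO, a direction without overlap that held for 25.4% of all genes.

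**Figure D1:**
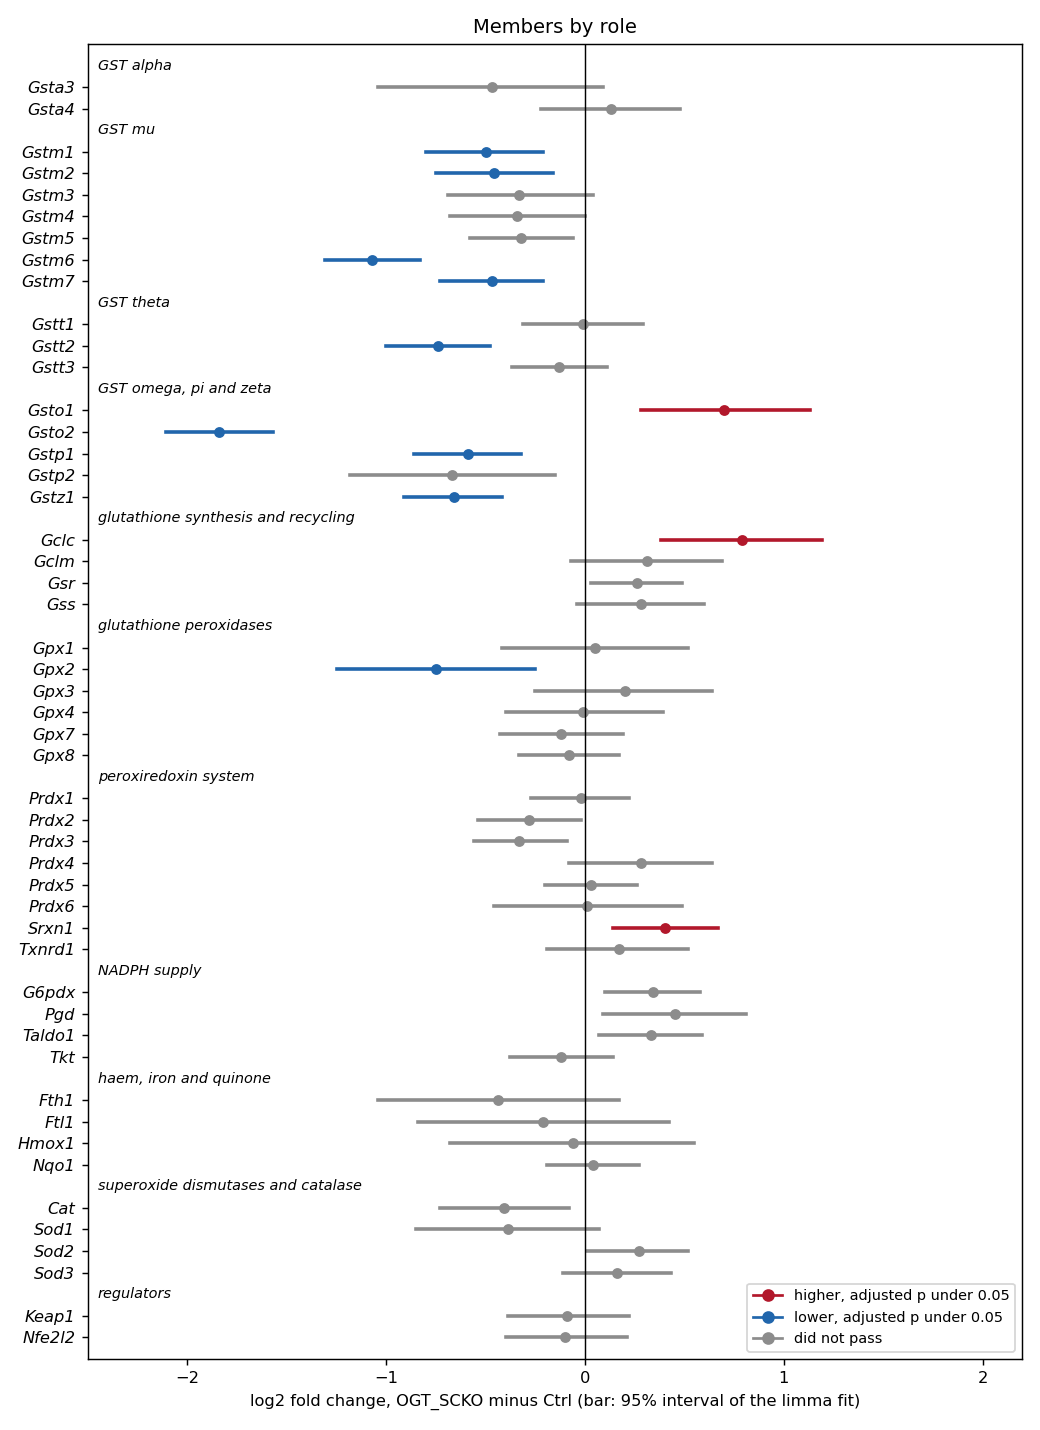
Log2 fold change (OGT_SCKO minus Ctrl) of each of the 49 tested members, grouped by role; bars are 95% intervals of the limma fit with 3 arrays per group. Glutathione transferases lie mostly left of 0, with Gsto2 at -1.84 the farthest, while Gclc at 0.79 and Gsto1 at 0.70 lie farthest to the right.

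Calls among the members depended on the arrays and the processing. With slide as a fixed block, 2 of the 12 calls held, those of Gsto2 and Gstm6, and on slide 1 alone that of Gsto2 held. Leaving out OGT_SCKO 3 gave 5 member calls, leaving out Ctrl 1 or Ctrl 2 gave 6, and leaving out Ctrl 3 gave 4. The 4 member genes whose calls held whichever single array was left out were Gsto2, Gstm6, Gstt2 and Gstz1. Without the filter on dim probes, which adds tests, 5 calls held, those of Gsto2, Gstm6, Gstt2, Gstz1 and Gstp1. Under median scaling Gstm2 (adjusted p = 0.0503), Gstm7 (0.0548) and Srxn1 (0.0527) no longer passed.

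The mu class, a tandem cluster of genes on chromosome 3 whose enzymes conjugate a broad range of aromatic and epoxide electrophiles, was negative in all 7 of its genes. Gstm1, Gstm2, Gstm6 and Gstm7 were lower in OGT_SCKO at an adjusted p under 0.05, and Gstm3, Gstm4 and Gstm5 did not pass. The median of the class was -0.46. The arrays of 6 genes were lower in OGT_SCKO without overlap, which held for 25.4% of all genes. Because mu genes are close copies of each other, the letters of some of their probes are shown. Probes were compared with probes and not with the transcripts of the other genes. The letters therefore cannot decide what the array could tell apart. The mu probes below cover the same stretch of 55 bases in Gstm6, Gstm7 and Gstm3, on mm9 and the minus strand, at chr3:107745052-107745111, chr3:107732073-107733247 and chr3:107769290-107770549; the last 2 span an exon junction. Capitals mark the positions at which the 3 are not all alike.
Gstm6: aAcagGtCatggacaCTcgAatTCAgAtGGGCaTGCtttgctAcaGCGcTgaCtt
Gstm7: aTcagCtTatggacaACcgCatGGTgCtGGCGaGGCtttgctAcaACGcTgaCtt
Gstm3: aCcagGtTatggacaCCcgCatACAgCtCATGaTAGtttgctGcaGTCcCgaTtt

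The 3 stretches differed at 23 of the 55 positions. Over all 55, Gstm6 and Gstm7 were identical at 74.5%, Gstm6 and Gstm3 at 69.1%, and Gstm7 and Gstm3 at 67.3%. The longest run of letters that the Gstm6 probe shown shares with a probe of another member gene was 11 bases, with Gstm7. How far such runs cross-hybridise was not tested.

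Gstm6 fell the most in the class. It stood at -0.46, -0.63 and -0.59 in OGT_SCKO and at 0.50, 0.49 and 0.54 in Ctrl. The groups were far apart, and each was tight. Its log2 fold change was -1.07 ± 0.10 (SE), 2.10-fold lower, with an adjusted p of 0.00101 by limma. All 4 of its kept probes were lower, with log2 fold changes of -1.52 to -0.93. The probe printed above gave -0.93 and is not the one that stands for the gene. With slide as a fixed block the change was -1.05 (adjusted p = 0.0239), and on slide 1 alone it was -1.05 (adjusted p = 0.0892).

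Gstm7 stood at 0.04, 0.17 and 0.00 in OGT_SCKO, against 0.65, 0.45 and 0.53 in Ctrl. All OGT_SCKO arrays were below all Ctrl arrays, and both of its probes were lower. The log2 fold change was -0.47 ± 0.11 (SE), 1.38-fold lower (limma, adjusted p = 0.0257). It did not pass without OGT_SCKO 3 (adjusted p = 0.106), Ctrl 1 (0.0948), Ctrl 2 (0.055) or Ctrl 3 (0.0915), nor with slide as a block (-0.37, adjusted p = 0.211).

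Gstm2 stood at 3.31, 3.07 and 2.97 in OGT_SCKO, against 3.53, 3.65 and 3.53 in Ctrl. OGT_SCKO 1 was the closest to the Ctrl arrays, without overlap. This amounted to a log2 fold change of -0.46 ± 0.13 (SE), 1.37-fold lower (limma, adjusted p = 0.0426), and its 3 probes ran from -0.50 to -0.46. The call was lost without any 1 of the arrays other than OGT_SCKO 1, at adjusted p of 0.0735 without OGT_SCKO 2, 0.15 without OGT_SCKO 3, 0.106 without Ctrl 1, 0.134 without Ctrl 2 and 0.116 without Ctrl 3, and with slide as a block it was 0.153.

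Gstm1 stood at 2.27, 1.98 and 1.93 in OGT_SCKO, against 2.56, 2.51 and 2.61 in Ctrl, again with OGT_SCKO 1 nearest to Ctrl and no overlap. Its log2 fold change was -0.50 ± 0.12 (SE), 1.41-fold lower (limma, adjusted p = 0.0312). That probe is placed by the files on chromosome 5, at chr5:117082490-117082549 of mm9, although Gstm1 lies on chromosome 3. The dimmer Gstm1 probe, on chromosome 3, gave -0.25 ± 0.17 (SE) and did not pass (limma, adjusted p = 0.308). For that probe the groups overlapped. The call of the brighter probe was lost without OGT_SCKO 2 (adjusted p = 0.056), OGT_SCKO 3 (0.118), Ctrl 1 (0.0948), Ctrl 2 (0.0799) or Ctrl 3 (0.112), and with slide as a block (0.202). Of the other mu genes, Gstm3 had a log2 fold change of -0.33, Gstm4 of -0.34 and Gstm5 of -0.32. Arrays of Gstm4 and Gstm5 did not overlap between groups, whereas those of Gstm3 did.

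The omega, pi and zeta classes held the members with the greatest differences in either direction among the transferases. Gsto2, an omega enzyme that reduces dehydroascorbate, stood at -1.40, -1.65 and -1.66 in OGT_SCKO, against 0.26, 0.29 and 0.26 in Ctrl. Its Ctrl arrays were nearly equal, and every OGT_SCKO array was far below them. On the log2 scale the difference was -1.84 ± 0.11 (SE), so the signal in OGT_SCKO was 28% of that in Ctrl (limma, adjusted p = 0.000236). It was the member with the largest fall, and its call held under all 18 alternatives run, with log2 fold changes of -1.92 to -1.70.

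Gsto1 went the other way. This omega enzyme, which reduces protein-glutathione disulfides and methylated arsenic, has its probe 21.5 kb from that of Gsto2 on chromosome 19. It stood at 2.44, 1.89 and 2.18 in OGT_SCKO, against 1.28, 1.68 and 1.46 in Ctrl. OGT_SCKO 2 and Ctrl 2 came closest to each other, without overlap. The log2 fold change was 0.70 ± 0.18 (SE), 1.63-fold higher (limma, adjusted p = 0.0337). It did not pass without OGT_SCKO 1 (adjusted p = 0.053), or without OGT_SCKO 3, Ctrl 1 or Ctrl 3 (0.108 each), and with slide as a block it was 0.49 (adjusted p = 0.247).

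Gstz1, which isomerises maleylacetoacetate in tyrosine breakdown, stood at 1.50, 1.61 and 1.46 in OGT_SCKO, against 2.27, 2.12 and 2.18 in Ctrl. The gap between the groups was wider than the range within either. This amounted to a log2 fold change of -0.66 ± 0.10 (SE), 1.58-fold lower (limma, adjusted p = 0.00656; 0.0912 in the slide-blocked fit, at -0.59).

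The pi genes Gstp1 and Gstp2 are neighbours on chromosome 19, with probes 3.56 kb apart, and their enzymes also bind the stress kinase JNK. Probes of the 2 share a stretch of 35 bases that shows how little separates them. The sequences, on mm9 and the minus strand at chr19:4035908-4036723 for Gstp1 and chr19:4040983-4041042 for Gstp2, carry capitals at the 5 positions that differ.
Gstp1: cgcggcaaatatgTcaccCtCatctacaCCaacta
Gstp2: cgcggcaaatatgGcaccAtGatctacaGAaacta

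They were identical at 85.7% of positions, and 13 bases was the longest run shared between probes of different member genes. Gstp1 and Gstp2 are therefore given as uncertain in their separation. Gstp1 stood at 3.44, 3.35 and 3.51 in OGT_SCKO, against 3.96, 3.95 and 4.17 in Ctrl. OGT_SCKO arrays were all below the Ctrl arrays. On the log2 scale the difference was -0.59 ± 0.11 (SE), 1.51-fold lower (limma, adjusted p = 0.0129). Without Ctrl 3 it was -0.52 (adjusted p = 0.0592), and with slide as a block -0.52 (adjusted p = 0.138).

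The brighter of the Gstp2 probes stood at 5.11, 4.33 and 4.75 in OGT_SCKO, against 5.23, 5.63 and 5.33 in Ctrl. The OGT_SCKO arrays were widely spread and the groups did not overlap, with a log2 fold change of -0.67 ± 0.22 (SE) that did not pass (limma, adjusted p = 0.0701). The Gstp2 probe printed above stood at 3.34, 3.25 and 3.26 in OGT_SCKO, against 3.77, 3.90 and 3.94 in Ctrl. Its arrays were tight, and its log2 fold change of -0.59 passed in the fit of all probes (limma, adjusted p = 0.00916).

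Theta enzymes conjugate small halogenated compounds, and their genes lie side by side on chromosome 10. Gstt2 stood at 0.22, 0.00 and -0.01 in OGT_SCKO, against 0.79, 0.83 and 0.82 in Ctrl. Its Ctrl arrays were nearly equal, with all OGT_SCKO arrays below. The log2 fold change was -0.74 ± 0.11 (SE), 1.67-fold lower (limma, adjusted p = 0.00523; 0.0611 in the slide-blocked fit, at -0.76). The Gstt1 probe, 48.6 kb away, gave -0.01 with a 95% interval of -0.31 to 0.29, and the Gstt3 probe, 9.54 kb from that of Gstt1, gave -0.13 with an interval of -0.37 to 0.11. In the alpha class, whose enzymes conjugate lipid peroxidation products, Gsta3 had a log2 fold change of -0.47 and Gsta4 of 0.13, and neither passed.

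**Figure D2:**
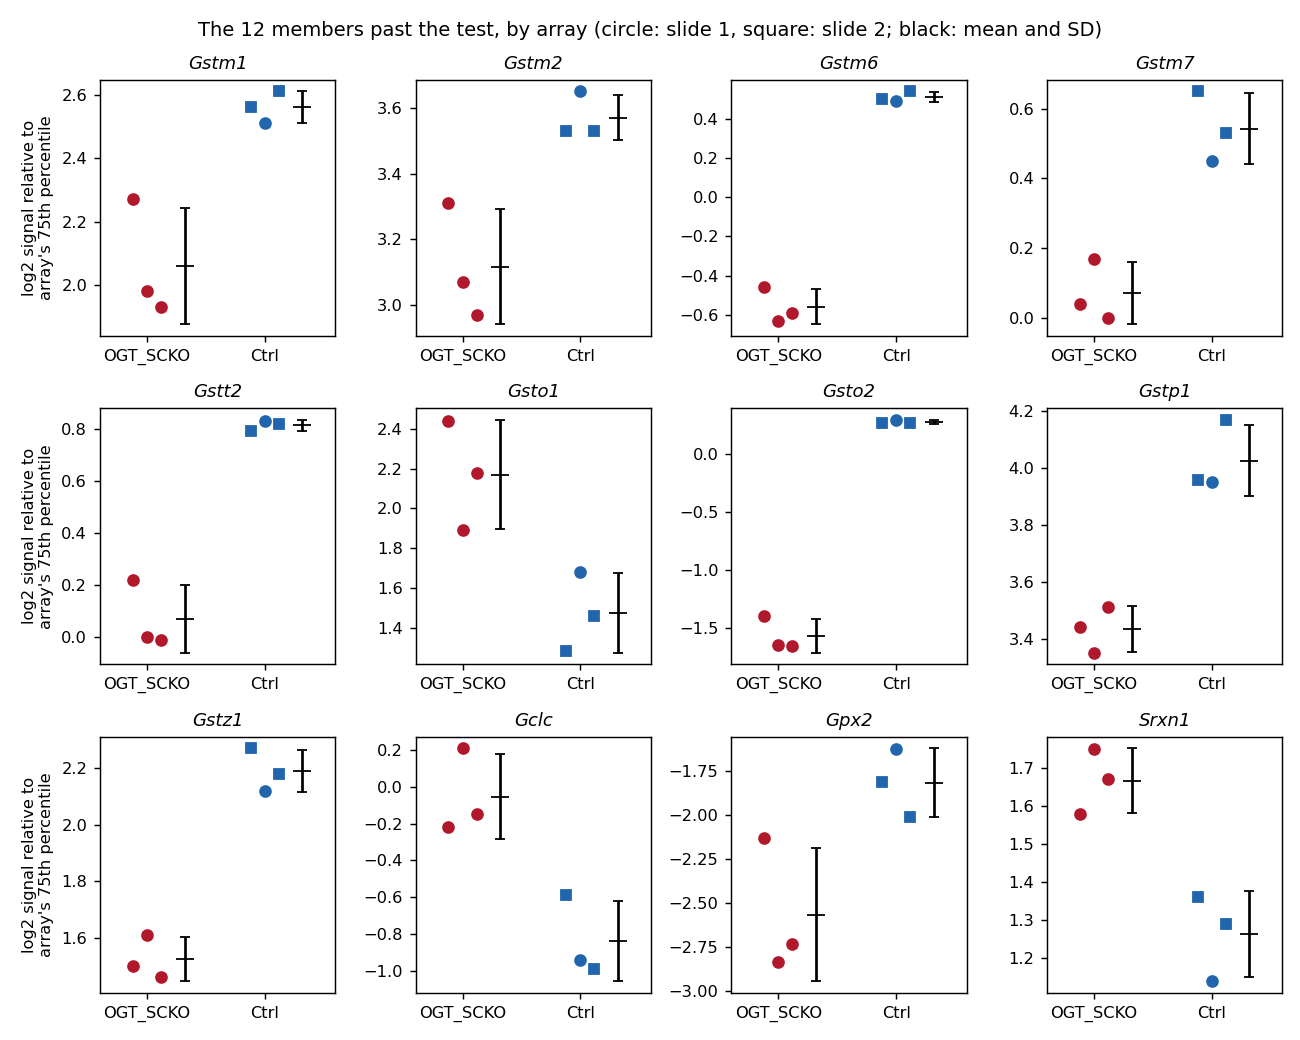
Log2 signal relative to the array's 75th percentile on each of 3 OGT_SCKO and 3 Ctrl arrays, for the 12 members with an adjusted p under 0.05; circles are arrays of slide 1, squares arrays of slide 2, and black bars the mean and SD, with a separate vertical axis for each gene. The 12 were picked by the test, which favours groups that do not overlap. In none of them did the groups overlap, beside 45.8% of all genes without overlap. The gap was widest for Gsto2, with means of -1.57 in OGT_SCKO and 0.27 in Ctrl.

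The probes of a transferase gene pointed the same way in every gene that had several. Of 28 kept transferase probes, 16 were lower and 1 was higher in the fit of all probes (60.7%, beside 23.5% of all 24287 kept probes). All 4 Gstm6 probes, all 3 Gstm2 probes, and both probes of Gstm7 and of Gstp1 were lower. Probes of 1 gene report the same pools and are not replicates of them.

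**Figure D3:**
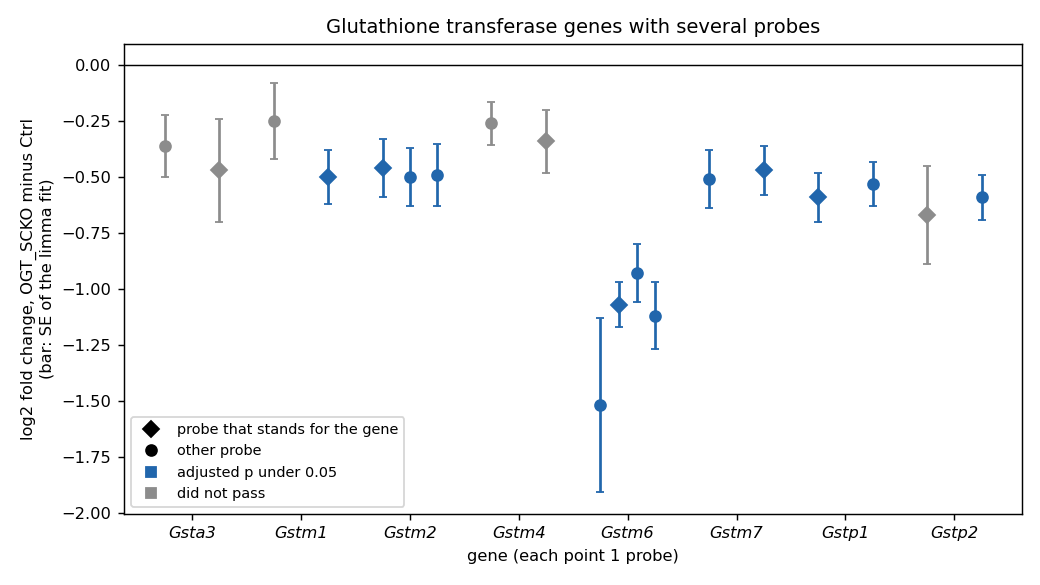
Log2 fold change (OGT_SCKO minus Ctrl, 3 arrays each) of every kept probe of the transferase genes with several probes; diamonds are the probes that stand for the gene, bars are SE of the limma fit, and blue marks an adjusted p under 0.05. All points lie below 0, from -1.52 for 1 Gstm6 probe to -0.25 for a Gstm1 probe.

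The 4 genes of glutathione synthesis and recycling were all positive, with a median log2 fold change of 0.29, and 1 of them passed. Gclc, the catalytic subunit of glutamate-cysteine ligase and the limiting step of glutathione synthesis, stood at -0.22, 0.21 and -0.15 in OGT_SCKO, against -0.59, -0.94 and -0.99 in Ctrl. The groups did not overlap. This amounted to a log2 fold change of 0.79 ± 0.17 (SE), 1.73-fold higher (limma, adjusted p = 0.0197). It did not pass without OGT_SCKO 3 (adjusted p = 0.061), Ctrl 2 (0.0676) or Ctrl 3 (0.0788), and with slide as a block it was 0.89 (adjusted p = 0.101).

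Gclm, the regulatory subunit of the same ligase, stood at -1.38, -0.96 and -1.11 in OGT_SCKO, against -1.46, -1.66 and -1.27 in Ctrl. OGT_SCKO 1 fell within the range of Ctrl, and the log2 fold change of 0.31 did not pass (limma, adjusted p = 0.192). Gsr, the reductase that regenerates glutathione, stood at 2.13, 2.21 and 2.09 in OGT_SCKO, against 1.90, 1.84 and 1.90 in Ctrl. The groups did not overlap, but the difference was small, 0.26 ± 0.097 (SE), with an adjusted p of 0.0956 by limma. Gss, which adds glycine to complete glutathione, had a log2 fold change of 0.28 (adjusted p = 0.173).

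Of 6 glutathione peroxidases tested, Gpx2 alone passed. This selenoenzyme, best known from the gut epithelium, stood at -2.13, -2.83 and -2.73 in OGT_SCKO, against -1.81, -1.62 and -2.01 in Ctrl. OGT_SCKO 1 was close to Ctrl 3, without overlap. On the log2 scale the difference was -0.75 ± 0.21 (SE), 1.68-fold lower (limma, adjusted p = 0.0455). Its call was lost without OGT_SCKO 2 (adjusted p = 0.0845), OGT_SCKO 3 (0.147), Ctrl 1 (0.119), Ctrl 2 (0.135) or Ctrl 3 (0.0844), in the slide-blocked fit (0.126) and when the background was corrected by normexp (-0.58, adjusted p = 0.187).

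The other glutathione peroxidases did not pass. Gpx1, the ubiquitous cytosolic enzyme, had a log2 fold change of 0.05, and Gpx4, which reduces lipid peroxides in membranes and guards against ferroptosis, of -0.01. Both are bright probes that depended on the scaling. Under quantile normalisation Gpx1 was 0.38 (adjusted p = 0.0228) and Gpx4 0.31 (adjusted p = 0.054), and the authors' deposited values gave 0.39 (adjusted p = 0.0201) and 0.32 (adjusted p = 0.0415). The secreted Gpx3 had 0.20, and Gpx7 and Gpx8 of the endoplasmic reticulum had -0.12 and -0.08.

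In the peroxiredoxin system 1 of 8 genes passed. Srxn1, the sulfiredoxin that repairs over-oxidised peroxiredoxins, stood at 1.58, 1.75 and 1.67 in OGT_SCKO, against 1.36, 1.14 and 1.29 in Ctrl. The groups did not overlap. The log2 fold change was 0.40 ± 0.11 (SE), 1.32-fold higher (limma, adjusted p = 0.0425). It failed without OGT_SCKO 2 (adjusted p = 0.0756), OGT_SCKO 3 (0.136), Ctrl 1 (0.0851), Ctrl 2 (0.14) or Ctrl 3 (0.122), with slide as a block (0.116), under median scaling (0.0527) and with normexp (0.101).

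Txnrd1, the cytosolic thioredoxin reductase, stood at 3.12, 2.70 and 3.00 in OGT_SCKO, against 2.64, 2.93 and 2.74 in Ctrl, and the groups overlapped (log2 fold change 0.17, limma adjusted p = 0.428). Of the peroxiredoxins, the mitochondrial Prdx3 stood at 1.62, 1.62 and 1.56 in OGT_SCKO, against 1.97, 1.94 and 1.86 in Ctrl. Its groups did not overlap, and its log2 fold change of -0.33 was just outside the threshold (adjusted p = 0.0534). Prdx2, abundant in red cells, had -0.28 (adjusted p = 0.109), and Prdx6, which reduces phospholipid peroxides, had 0.01.

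For the remaining peroxiredoxins the 2 probes of a gene differed in sign, none of them past the threshold. Prdx1, a cytosolic enzyme, stood at 4.90, 4.82 and 4.71 in OGT_SCKO, against 4.87, 4.78 and 4.84 in Ctrl, with a log2 fold change of -0.02, and its other probe gave 0.04. Prdx4, of the endoplasmic reticulum, stood at 1.55, 1.90 and 1.61 in OGT_SCKO, against 1.54, 1.19 and 1.48 in Ctrl, with 0.28 for this probe and -0.08 for a dim one. Prdx5, found in mitochondria and peroxisomes, stood at 4.04, 3.93 and 3.95 in OGT_SCKO, against 3.91, 3.94 and 3.99 in Ctrl, with 0.03 and -0.05 for its probes. Groups overlapped for Prdx1 and Prdx5 and nearly touched for Prdx4.

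Among the 4 pentose phosphate genes that supply or accompany NADPH none passed, and 3 were higher without overlap, a direction without overlap that held for 20.4% of all genes. G6pdx, the entry enzyme of the pathway, stood at 2.78, 2.70 and 2.86 in OGT_SCKO, against 2.39, 2.47 and 2.45 in Ctrl. Its groups were well apart, and its log2 fold change of 0.34 ± 0.10 (SE) missed the threshold narrowly (limma, adjusted p = 0.0502); it passed under 8 of 18 alternatives. Pgd, the second NADPH-yielding enzyme, had 0.45 (adjusted p = 0.077), and Taldo1, the transaldolase, 0.33 (adjusted p = 0.074). The transketolase Tkt had -0.12 and overlapped.

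The textbook NRF2 targets of haem, quinone and iron handling showed no change that passed. Nqo1, a quinone reductase often used as a readout of NRF2, stood at 0.94, 0.84 and 0.85 in OGT_SCKO, against 0.85, 0.84 and 0.82 in Ctrl. The values were almost the same, with a log2 fold change of 0.04 and a 95% interval of -0.19 to 0.27. Hmox1, which breaks down haem, stood at 3.35, 3.17 and 3.63 in OGT_SCKO, against 2.94, 3.90 and 3.51 in Ctrl. The Ctrl arrays spanned the OGT_SCKO arrays, with a log2 fold change of -0.06 and an interval of -0.68 to 0.55; the other probe gave 0.06. The ferritin subunits Fth1 and Ftl1, which store iron, had -0.44 and -0.21 and did not pass.

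The interval for Nqo1 excludes a change in either direction of 0.5 on the log2 scale, whereas that for Hmox1 does not. OGT_SCKO 2 was the lowest array for Fth1 and Ftl1, at 5.77 and 5.75, and this array also had the highest 75th percentile of signal, 6158, against 2748 to 4805 on the other 5 arrays. Under quantile normalisation Fth1 was -0.07 and Ftl1 0.15, so the sign of Ftl1 depended on the scaling.

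None of the superoxide dismutases or catalase passed. Cat, the peroxisomal enzyme that splits hydrogen peroxide, stood at 3.53, 3.14 and 3.37 in OGT_SCKO, against 3.66, 3.87 and 3.73 in Ctrl. Its groups did not overlap, and its log2 fold change was -0.41 (limma, adjusted p = 0.0733). The cytosolic Sod1 had -0.39 (-0.07 under quantile normalisation), the mitochondrial Sod2 had 0.27, and the secreted Sod3 had 0.16.

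Neither regulator of the pathway passed. Nfe2l2 stood at 1.80, 2.13 and 1.89 in OGT_SCKO, against 2.00, 1.96 and 2.16 in Ctrl, and the groups overlapped. Its log2 fold change was -0.10 with a 95% interval of -0.40 to 0.21. Keap1 stood at 1.70, 2.04 and 2.03 in OGT_SCKO, against 1.99, 2.02 and 2.02 in Ctrl. Only OGT_SCKO 1 stood apart, and the log2 fold change was -0.09 with an interval of -0.39 to 0.22. NRF2 is controlled mainly through the stability of the protein, which these arrays do not measure.

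**Figure D4:**
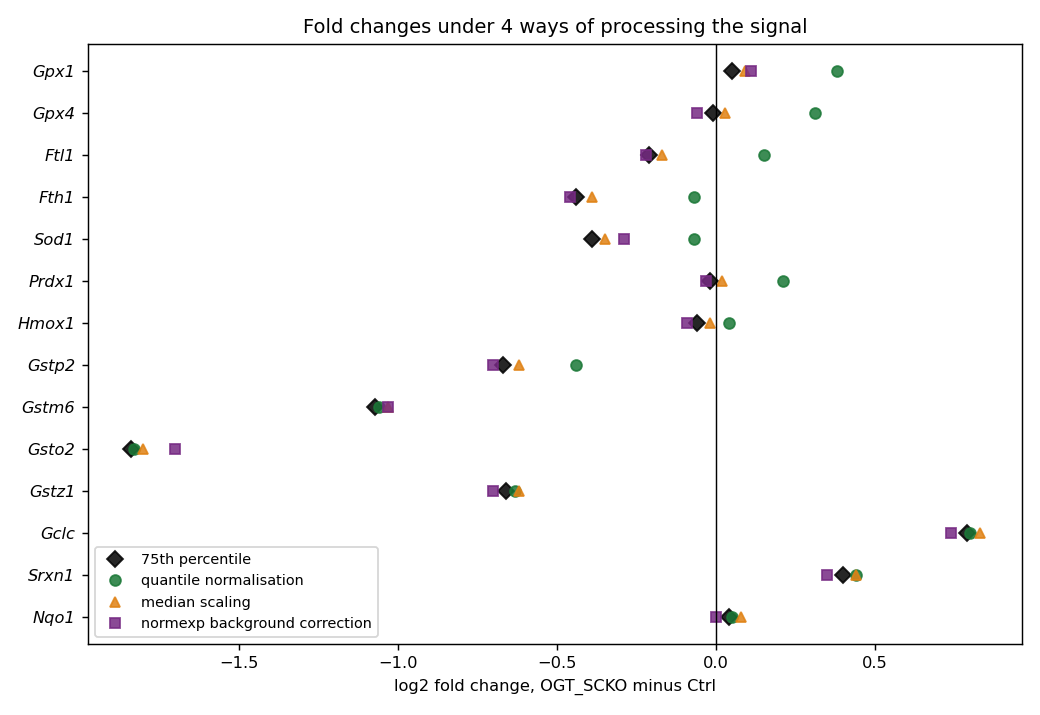
Log2 fold change (OGT_SCKO minus Ctrl, 3 arrays each) of 14 members under 4 ways of processing the signal: scaling to the 75th percentile, quantile normalisation, median scaling and normexp background correction. Gsto2, Gstm6, Gstz1 and Gclc move little, while the bright probes of Gpx1, Gpx4, Ftl1, Fth1 and Sod1 move to the right under quantile normalisation, Gpx4 to 0.31.

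Other genes of the pathway were counted in 5 lists. On slide 1 alone, of all genes named from these lists, Mgst1 and Gstk1 passed. Of 16 partners and regulators of NRF2, 6 were higher and none lower, with a median log2 fold change of 0.29, beside 11.1% higher and 12.1% lower among all genes. The list holds genes that act for NRF2 and genes that act against it. Maff, a small MAF protein that pairs with NRF2 or with repressors, had 1.34, or 2.53-fold higher (limma, adjusted p = 0.00583). Trim16, which is known in human cells to shield NRF2 from degradation, had 1.16 (adjusted p = 0.00732). Mafk, a second small MAF, had 0.56 (adjusted p = 0.0109; 0.0549 without Ctrl 3), and Nfe2l1, which encodes the related factor NRF1, 0.54 (adjusted p = 0.0156). With slide as a block Maff and Trim16 passed and Mafk (adjusted p = 0.112) and Nfe2l1 (0.114) did not. Nfe2l1 also failed without OGT_SCKO 3 (0.067), Ctrl 1 (0.0538), Ctrl 2 (0.0587) or Ctrl 3 (0.0684). Bach2, at 0.67 (limma, adjusted p = 0.0376), and Syvn1, at 0.53 (0.034), also passed. Neither was run under the alternatives, slide 1 among them.

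Of 23 further NRF2-linked targets tested, 3 were higher and 4 lower (30.4%, beside 23.2% of all genes, with a median of -0.12). Akr1b3, aldose reductase, had a log2 fold change of -1.81, or 3.50-fold lower (limma, adjusted p = 0.00173), and the efflux pump gene Abcc5 had -1.34 (adjusted p = 0.00175; -0.76, adjusted p = 0.00556, for the mean of its probes). Higher in OGT_SCKO were the pump gene Abcc4, at 1.22 (adjusted p = 0.00199), and Me1, the cytosolic malic enzyme that yields NADPH, at 0.62 (adjusted p = 0.0106; 0.0542 without Ctrl 3 and 0.109 with slide as a block). Slc7a11, Abcc2, Ugt1a6a and Adh7 of this list had no probe that passed the filter.

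Of 17 other glutathione enzymes tested, 1 was higher and 6 were lower (41.2%, beside 23.2% of all genes, with a median of -0.26). These hold the transferases outside the cytosolic classes, and a pair of them gave the largest differences of the list in opposite directions. Mgst1, the microsomal transferase, stood at 1.84, 1.94 and 2.05 in OGT_SCKO, against 0.07, 0.24 and 0.32 in Ctrl, a log2 fold change of 1.73, or 3.32-fold higher (limma, adjusted p = 0.00032). Gstk1, the kappa transferase of mitochondria and peroxisomes, stood at 0.10, 0.43 and 0.08 in OGT_SCKO, against 2.08, 1.88 and 2.02 in Ctrl, a log2 fold change of -1.79, or 3.46-fold lower (limma, adjusted p = 0.000452). Both calls held under all 18 alternatives. The gamma-glutamyl transferase family genes Ggt7 and Ggt5 were lower, with -0.85 (adjusted p = 0.00431; 0.0503 when blocked by slide) and -1.01 (adjusted p = 0.00494; -0.76, adjusted p = 0.089, under normexp). Gstcd and Hpgds had no probe that passed the filter.

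Of 17 thioredoxin and glutaredoxin genes, 2 were higher and 2 lower (median 0.04). That is 23.5%, near the 23.2% of all genes. The methionine sulfoxide reductases Msra and Msrb2 were higher, by 1.53 (limma, adjusted p = 0.0031) and 0.88 (adjusted p = 0.00312). Txnip, which binds and inhibits thioredoxin, was lower, at -0.97 (adjusted p = 0.0111; 0.0702 with slide as a block). Sesn3, a sestrin, was lower, at -0.55 (adjusted p = 0.0462), a call that was lost whichever array was left out, with adjusted p of 0.052 to 0.151, and with slide as a block (0.315). The Sesn3 call held under 3 of 18 alternatives. Of 9 genes that produce superoxide or assist its dismutases, Nox4, a hydrogen peroxide-producing NADPH oxidase, alone passed (11.1%), at 1.09 (limma, adjusted p = 0.0235). It failed without OGT_SCKO 3 (0.0696), Ctrl 1 (0.0666) or Ctrl 3 (0.0829) and with slide as a block (0.63, adjusted p = 0.195).

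**Figure D5:**
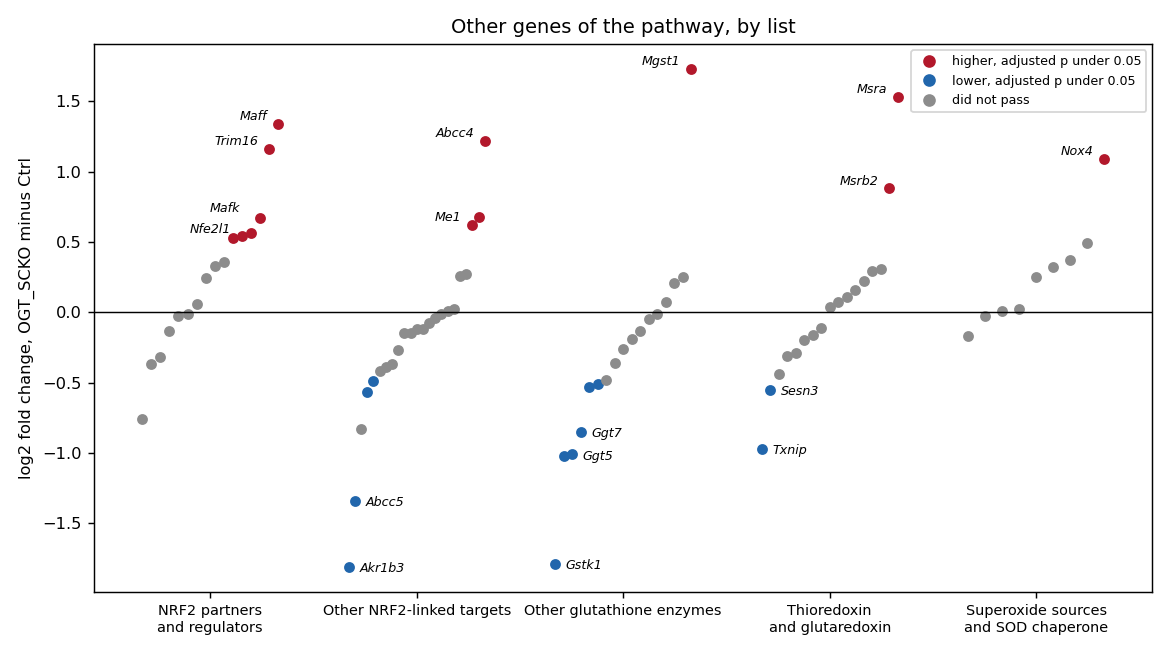
Log2 fold change (OGT_SCKO minus Ctrl, 3 arrays each) of every tested gene of 5 lists related to the members, ordered within each list; colours mark an adjusted p under 0.05 and the genes with the smallest p are named. Mgst1 at 1.73 and Msra at 1.53 are the highest points, and Akr1b3 at -1.81 and Gstk1 at -1.79 the lowest.

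Promoter letters are shown because NRF2 binds a known element. The core of the antioxidant response element, TGACNNNGC, was searched on both strands from 250 bases before to 50 bases after each gene start, in RefSeq sequences of build GRCm38.p6. Of 46 member genes with a promoter entry, 11 held a match (23.9%), beside 3781 of 27025 genes in all (14%). The other 7 members, Gclc, Gsr, Gsta4, Gstt2, Hmox1, Prdx6 and Sod3, had no entry and were not searched. Elements outside these windows were not searched for any gene. By promoter, of which a gene may have several, the shares were 11 of 61 (18%) and 4071 of 32851 (12.4%). The members with a match were G6pdx, Gclm, Gsta3, Gstm5, Gstm7, Nfe2l2, Pgd, Prdx1, Sod1, Srxn1 and Txnrd1. Of these, Gstm7 was lower and Srxn1 higher in OGT_SCKO, and the other 9 did not pass. A match in these windows was found in members of either direction and in members that did not pass. The matches upstream of 4 of them are printed on the strand of each gene, with the match in capitals. That is the minus strand for Gstm7 and G6pdx and the plus strand for Gstm5 and Gclm. Their positions are chr3:107931719-107931759 for Gstm7, chr3:107895796-107895836 for Gstm5, chr3:122245407-122245447 for Gclm and chrX:74428913-74428953 for G6pdx.
Gstm7: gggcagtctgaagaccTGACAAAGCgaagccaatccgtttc
Gstm5: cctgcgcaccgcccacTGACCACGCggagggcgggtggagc
Gclm: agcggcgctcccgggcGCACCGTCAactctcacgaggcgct
G6pdx: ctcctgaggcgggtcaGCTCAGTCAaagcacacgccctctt

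In Gclm and G6pdx the match reads on the strand opposite to the gene, so its letters appear as the reverse complement. Gclm and G6pdx had log2 fold changes of 0.31 and 0.34, Gstm5 of -0.32 and Gstm7 of -0.47. A match is a description of letters, and binding was not measured.

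Marker lists of cell types in the nerve are given as the log2 of the summed signal relative to the 75th percentile, a sum that the brightest probes dominate. Most of these sums did not overlap between groups. As single genes, 45.8% of all genes tested did not overlap either. Beside the counts passed in each list, 12.1% of all genes tested were lower and 11.1% higher. In the Schwann cell, erythroid, endothelial, fibroblast and macrophage lists 20% to 25% passed, near the 23.2% of all genes. The 8 Schwann cell markers reported here, Sox10 and S100b among them, were well above background on every array and all had negative log2 fold changes, with a median of -0.37. Of these 8, 2 were lower, S100b at -0.67 among them (limma, adjusted p = 0.0116). The 8 summed to 7.91 to 8.59 in OGT_SCKO and 8.55 to 9.01 in Ctrl. The sums overlapped, as OGT_SCKO 1 (8.59) was above Ctrl 1 (8.55). Adipocyte markers summed to -0.72 to 1.47 in OGT_SCKO and 1.94 to 4.35 in Ctrl, with 5 of 9 lower. Of those 5, 4 missed the background threshold on at least 1 OGT_SCKO array and so entered the tests through the group in which they are high. Skeletal muscle markers summed to 1.29 to 2.07 in OGT_SCKO and 2.52 to 2.81 in Ctrl, with 6 of 9 lower. Erythroid markers summed to 5.80 to 6.15 in OGT_SCKO and 6.42 to 7.25 in Ctrl, with 1 of 4 lower. Lep, Ckm, Ahsp, Epb4.2 and Rhag of these lists had no probe that passed the filter.

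Perineurial markers summed to 5.24 to 5.46 in OGT_SCKO and 5.70 to 6.10 in Ctrl, with 3 of 7 lower. Those 3 were Lypd2, Krt19 and Msln. Of the others, Itgb4, with the brightest probe of the list, had -0.52, Slc2a1 -0.29, Cldn1 -0.12 and Tjp1 0.46, and none passed. Endothelial markers summed to 4.56 to 4.89 in OGT_SCKO and 5.15 to 5.31 in Ctrl, with 2 of 8 lower. Cell division genes summed to 1.60 to 1.84 in OGT_SCKO and 0.42 to 0.63 in Ctrl. All 6 tested were higher, but Top2a was well above background on every OGT_SCKO array and on 1 Ctrl array, and Cdk1 and Aurkb had no probe that passed the filter. Mast cell markers summed to 2.73 to 3.55 in OGT_SCKO and 1.35 to 2.53 in Ctrl, with 2 of 5 higher. Neutrophil markers summed to -2.50 to -2.12 in OGT_SCKO and -2.40 to -2.26 in Ctrl, with none of 3 past the test and log2 fold changes of 0.03 to 0.37. Neuronal markers summed to 4.05 to 4.38 in OGT_SCKO and 3.42 to 3.87 in Ctrl. Yet 6 of the 7 had negative log2 fold changes, and 2 of these passed. Syt1, 1 of those 2, was well above background on no OGT_SCKO array. The seventh, Uchl1, was higher, at 1.96 (adjusted p = 0.000289). Macrophage markers (6.04 to 6.48 in OGT_SCKO, 6.21 to 6.43 in Ctrl, 2 of 10 higher) and fibroblast markers (7.53 to 8.39 in OGT_SCKO, 8.12 to 8.70 in Ctrl, 2 of 8 lower) overlapped between groups. These differences in marker signal run beside the lower transferases and the higher Gclc, Srxn1 and Gsto1, and their part in the result was not tested.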

How the data were processed

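Total RNA of 6 pools was measured on 1-colour Agilent arrays in the red channel. Agilent Feature Extraction 11.5.1.1 produced the deposited intensity of each spot, per the file headers, subtracting background but not normalising between arrays. Other flags in the deposited files state whether a spot was above background, saturated or an outlier; 59.9% to 66.1% of 43020 spots per array were well above background and none was saturated. The authors' deposited log2 values share 1 median in every array and were used as an alternative; their normalisation is not described in the sources used here.

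Log2 of the processed signal was set relative to the 75th percentile of each array, without control and outlier spots. Spots of a probe were averaged, and a gene was represented by its kept probe with the highest mean. The comparison of groups used limma 3.58.1 (lmFit, then eBayes; R 4.3.3) without covariates, over 19058 genes or 24287 probes. Probe positions are mm9, as in the files; of 76 member probes, 72 matched RefSeq by accession. The members and lists were chosen with earlier results of these data known. By rule, every tested member is named, changed members with every array's value. Of each list of other pathway genes at most 4 that passed are named, those with the smallest p. Bach2 and Syvn1 are named beside these. On simulated data of 19042 genes, the fit recovered 3 of 100 changed by 0.5 and 66 of 100 changed by 1 (log2), with 6 false calls. Far fewer genes changed there than the 23.2% called in the data, which makes the adjusted threshold stricter. These shares are therefore not the sensitivity of the fit to the data, although differences under 1 can be missed. The number of arrays limits the precision. Some marker genes are not reported here.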

Additional observations from a re-analysis of the deposited data

How the results depend on the processing

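The member calls numbered 12, the transferases lower in OGT_SCKO 8 and the genes called 4421. Without a filter on dim probes these were 5, 5 and 2627, with slide as a fixed block 2, 2 and 1215, and on slide 1 alone 1, 1 and 401. Under normexp the genes called were 2724. The replicate block gave 2, 2 and 1466. Deviations of arrays with equal numbers correlated at -0.27, -0.53 and 0.06. With so few arrays per group, these correlations cannot decide whether pools with equal numbers were matched. Leaving out 1 array at a time gave 4 to 15 member calls, 4 to 10 lower transferases and 1974 to 5519 genes. The other alternatives kept these counts within 1.5 times. The transferases were negative in 14 or 15 of 17 genes throughout, with a median of -0.55 to -0.40, and no call of a member changed sign. Signs turned only for members that did not pass in the main fit, where their values lay between -0.21 (Ftl1) and 0.20 (Gpx3). Of these, Gpx4 passed with a turned sign under the deposited values (limma, adjusted p = 0.0415). Quantile normalisation gave Gstt1 0.03, Tkt 0.09, Gpx4 0.31, Gpx8 0.02, Ftl1 0.15, Hmox1 0.04 and Prdx1 0.21, and the deposited values 0.03, 0.09, 0.32, 0.02, 0.16, 0.03 and 0.19 for the same genes. Median scaling gave Gstt1 0.03, Gpx4 0.03 and Prdx1 0.02, normexp gave Prdx5 -0.01, and the mean of a gene's probes gave Hmox1 0.00, Prdx1 0.01 and Prdx5 -0.01. With slide as a fixed block or slide 1 alone, Gstt1 was 0.13, Gpx1 -0.10, Gpx3 -0.15, Gpx8 0.00, Prdx1 0.03 and Prdx6 -0.08, and with slide as a random block Gpx4 and Hmox1 were 0.02. With 1 array left out, Gstt1 ran from -0.08 to 0.08, Gpx1 from -0.13 to 0.24, Gpx4 from -0.14 to 0.14, Ftl1 from -0.44 to 0.05, Hmox1 from -0.32 to 0.16, Prdx1 from -0.06 to 0.03, Prdx5 from -0.01 to 0.05, Prdx6 from -0.11 to 0.20 and Keap1 from -0.15 to 0.03. The cause of these turns was not tested.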
